A study of Mus musculus with 25 samples.

Results

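The genes described here encode 10 ligands and enzymes through which tumor cells restrain immune cells, selected by symbol (Cd274, Pdcd1lg2, Cd276, Cd80, Cd86, Pvr, Nectin2, Lgals9, Cd47 and Nt5e) from the 55385 genes counted. All 10 symbols were found. Of these, 8 passed the filter on low counts that kept 15247 genes, and Pdcd1lg2 and Cd86 did not. RNA-seq was performed on cultured, untreated murine melanoma cells at a confluency of 50%, with 5 biological replicates per line. WT31 was established from Tyr::Nras Q61K/°; INK4a-/- mice, RET from transgenic mice in which the metallothionein-I promoter drives RET, and B16F10 luc2 is a commercial line that carries luciferase. D4M came from Tyr::CreER;BrafCA;Ptenlox/lox mice, in which the tyrosinase promoter drives the inducible Cre, and HCmel12 from a primary melanoma of an HGF-CDK4(R24C) mouse. WT31, B16F10 luc2 and RET are the high and intermediate metastatic (HIM-) melanoma and D4M and HCmel12 the low metastatic (LM-) melanoma of the study. Each genotype is thus represented by 1 line, and p-values measure the spread between cultures of a line. 1 medium was common to the HIM-melanoma lines, whereas another was used for D4M and a different one for HCmel12. Effects of line and medium cannot be told apart in comparisons with D4M or HCmel12.

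Immune checkpoint ligands are surface or secreted proteins that engage inhibitory receptors on T cells, natural killer cells or macrophages. PD-L1 and PD-L2 (Cd274 and Pdcd1lg2) bind PD-1, and CD80 and CD86 bind the activating receptor CD28 and the inhibitory receptor CTLA-4. PVR (CD155) and Nectin-2 bind TIGIT and the activating receptor DNAM-1, galectin-9 binds TIM-3, and CD47 binds SIRPα on macrophages. CD73 (Nt5e) produces extracellular adenosine from AMP. Melanoma cells are known to display PD-L1 in response to interferon gamma released by T cells, and the cultures here were untreated.

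The members lie at several loci of GRCm38. Cd274 (ENSMUSG00000016496.7, chr19:29367455-29388095, plus strand) and Pdcd1lg2 (ENSMUSG00000016498.10, chr19:29410919-29471161, plus strand) are neighbors, 22.8 kb apart with 0 protein-coding genes between them. Nectin2 (ENSMUSG00000062300.14, chr7:19716644-19750483, minus strand) and Pvr (ENSMUSG00000040511.14, chr7:19903578-19921160, minus strand) are 153.1 kb apart with 6 protein-coding genes between them. Cd80 (ENSMUSG00000075122.5, chr16:38455561-38496335, plus strand), Cd86 (ENSMUSG00000022901.13, chr16:36603869-36666081, minus strand) and Cd47 (ENSMUSG00000055447.19, chr16:49800533-49915010, plus strand) share chromosome 16. Cd276 (ENSMUSG00000035914.11, chr9:58524298-58555437, minus strand) and Nt5e (ENSMUSG00000032420.8, chr9:88327197-88372092, plus strand) lie on chromosome 9, and Lgals9 (ENSMUSG00000001123.15, chr11:78962974-78984946, minus strand) lies on chromosome 11. Exons of Cd274, Cd276 and Nectin2 overlap exons of the antisense genes AC119228.1, Gm10657 and Gm20512. Of the 31-base sequences in their transcripts, 14.6%, 10.5% and 3.15% also occur in transcripts of other genes, so that kallisto may have had to divide such reads. The share was at most 1.76% for the other members. The sources used here do not state whether strand was used.

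Promoter sequences are shown for 4 members that take their highest level in different lines or differ most between lines. They run from 250 bases before to 50 bases after the gene start and come from RefSeq (GRCm38.p6), whose table held an entry for 8 of the 10 members (2 for Cd47). RefSeq starts can lie inside the gene bounds given above. Cd274 (PD-L1, chr19:29367188-29367487, plus strand) was highest in HCmel12, Lgals9 (galectin-9, chr11:78984875-78985174, minus strand) in RET and WT31, and Cd80 (chr16:38458683-38458982, plus strand) and Nt5e (CD73, chr9:88327359-88327658, plus strand) in D4M. Capitals mark matches on either strand to an AP-1 site (TGANTCA), the core of an interferon-stimulated response element (GAAANNGAAA), a gamma-activated site (TTCNNNGAA) or a GC box (GGGCGG).
Cd274: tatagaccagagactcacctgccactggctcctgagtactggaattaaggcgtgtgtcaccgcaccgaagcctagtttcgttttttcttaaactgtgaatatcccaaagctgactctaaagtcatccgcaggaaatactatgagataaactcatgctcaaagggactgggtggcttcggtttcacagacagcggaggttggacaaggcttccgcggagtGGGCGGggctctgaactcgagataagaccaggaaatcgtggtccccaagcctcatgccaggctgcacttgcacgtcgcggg
Lgals9: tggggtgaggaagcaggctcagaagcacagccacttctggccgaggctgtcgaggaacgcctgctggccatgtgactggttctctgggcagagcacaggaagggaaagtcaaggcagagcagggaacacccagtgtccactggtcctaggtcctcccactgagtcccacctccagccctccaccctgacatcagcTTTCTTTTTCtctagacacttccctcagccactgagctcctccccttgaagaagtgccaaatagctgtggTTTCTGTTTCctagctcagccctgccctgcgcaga
Cd80: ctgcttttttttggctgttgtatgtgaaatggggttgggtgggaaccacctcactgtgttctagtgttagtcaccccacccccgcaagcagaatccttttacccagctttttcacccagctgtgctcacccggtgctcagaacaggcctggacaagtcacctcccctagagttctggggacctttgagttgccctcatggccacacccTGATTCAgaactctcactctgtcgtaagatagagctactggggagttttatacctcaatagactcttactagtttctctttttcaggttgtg
Nt5e: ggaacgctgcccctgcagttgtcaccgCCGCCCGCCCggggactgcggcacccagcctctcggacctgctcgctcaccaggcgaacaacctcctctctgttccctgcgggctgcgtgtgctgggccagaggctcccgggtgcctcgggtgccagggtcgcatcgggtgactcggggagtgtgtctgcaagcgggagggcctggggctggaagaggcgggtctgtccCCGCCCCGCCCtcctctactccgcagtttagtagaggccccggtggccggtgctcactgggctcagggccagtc
The Lgals9 promoter held 2 matches to the response element core, which begin 55 bases before and 15 bases after the start. Among all 32851 promoters of the same length, 3.44% held such a match. The Cd80 promoter held 1 AP-1 match, 42 bases before the start, and 7.81% of all promoters held one. Cd274 and Nt5e promoters held GC boxes, as did those of Cd276, Cd47 and Nectin2, compared with 35.7% of all promoters. None of the 9 members' promoter entries held the gamma-activated site (8.3% of all promoters), CACGTG (7.15%) or GGAATG (14.7%), and CATGTG (14.2%) occurred in Lgals9 and Pdcd1lg2. The overlaps between matches were those of neighboring GC boxes in the Nt5e promoter. The GC content was 52.7% for Cd274, 58% for Lgals9, 49.7% for Cd80 and 71% for Nt5e, beside a median of 52.7% over all promoters.

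Library totals ranged from 24199083 to 25843286 estimated counts. CPM are counts per 1000000, scaled by TMM factors, and 3 counts, the limit taken as detectable, correspond to 0.111 to 0.138 CPM. Within a line, log2 CPM over the tested genes correlated at r of at least 0.9785. HCmel12 replicate 4 had the lowest mean correlation with its own line (0.981), and its CPM of the melanocyte genes Tyr (30.0 against 6.31 to 9.13) and Dct (5044 against 2347 to 2600) stood above those of the other HCmel12 libraries. The 10 melanocyte lineage markers summed to 12290 to 31420 CPM in the libraries of WT31, B16F10 luc2, RET and HCmel12 but to 6.58 to 60.6 CPM in those of D4M, where 2 of 10 stayed at or under 3 counts. The highest of the D4M sums belonged to replicate 1 (Tyrp1 27.0 CPM, against at most 2.85 in the other D4M libraries). Fibroblast markers summed to 1541 to 2423 CPM in D4M and to at most 104.3 elsewhere. Of the 10 listed, 7 were tested, and all 7 were called highest in D4M (20% of tested genes). S100a4 (950 CPM) and Col3a1 (472 CPM) were large parts of the D4M sum. Dcn and Thy1 held at most 12 and 16 counts in D4M libraries, and Lum held 0. D4M is therefore named by its label here, since its melanocyte markers were nearly absent. In bulk RNA, fewer cells of a type cannot be told apart from less RNA per cell.

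The 10 ligands took very different shares of the message in each line. Levels between genes were compared as TPM, which are scaled by transcript length. Lgals9 led in WT31 (78.2 ± 31.6 TPM, SD, n = 5) and in RET (72.0 ± 3.84), where it made up 50.9% and 54.8% of the summed TPM of the 10 genes. Nectin2 led in B16F10 luc2 with 64.5 ± 6.35 TPM, 48.0% of the sum. Cd276 (78.0 ± 6.76 TPM, n = 4) and Pvr (74.3 ± 4.90 TPM, n = 4) led in D4M. In HCmel12, Nectin2 (25.2 ± 3.75 TPM), Pvr (24.7 ± 4.45) and Cd276 (23.1 ± 3.14) lay within 1 SD of each other. Cd274 reached 12.01 ± 5.06 TPM in HCmel12, more than 52.7% of the tested genes, and at most 2.09 TPM in the other lines. The summed TPM of the 10 genes was 249.7 in D4M, 153.5 in WT31, 134.2 in B16F10 luc2, 131.3 in RET and 109 in HCmel12.

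**Figure D1:**
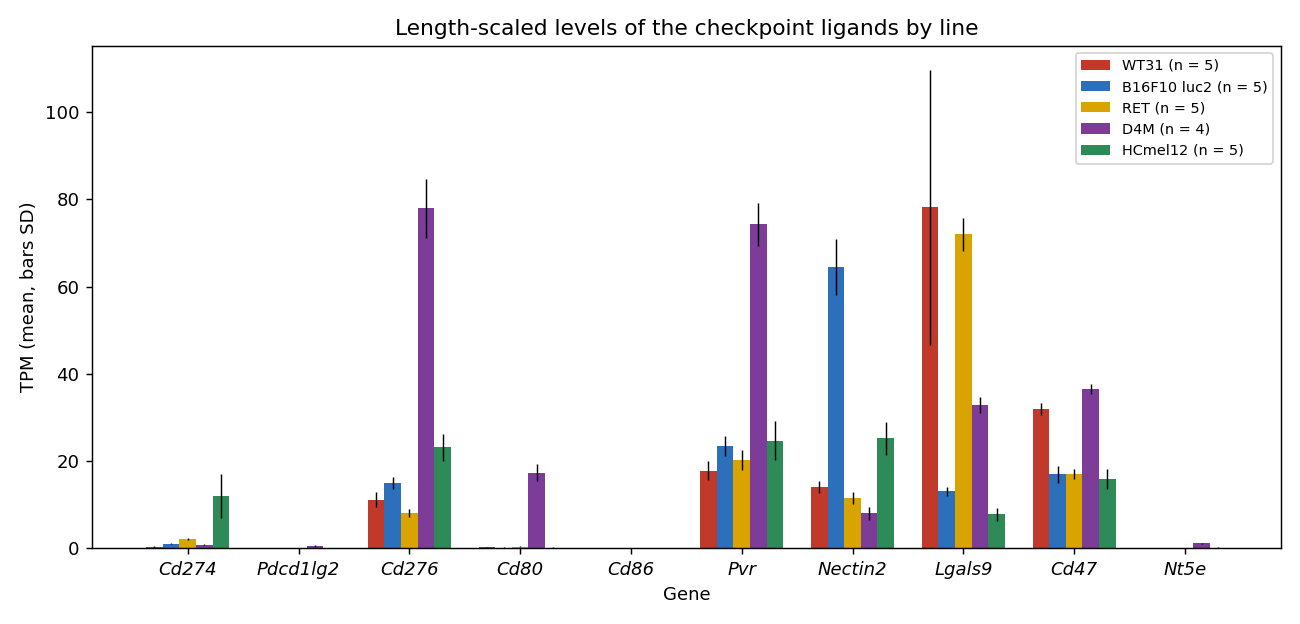
Mean TPM of the 10 genes by line, with bars of 1 SD (n = 5 libraries, 4 for D4M). Lgals9 is the tallest bar in WT31 and RET, Nectin2 in B16F10 luc2, and Cd276 and Pvr stand near 78.0 and 74.3 TPM in D4M.

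To follow each gene across lines, all 10 pairs of lines were compared in 1 fit. Most tested genes were called in each comparison, so that a call for a single member is common. WT31 against D4M called 8 of the 8 tested members (76.1% of all tested genes), B16F10 luc2 against D4M 7 (77.7%) and RET against D4M 8 (77.1%). WT31 against HCmel12 called 6 (70.4%), B16F10 luc2 against HCmel12 4 (69.1%) and RET against HCmel12 7 (67.2%). Within HIM-melanoma, 6 were called for WT31 against B16F10 luc2 (72.8%), 4 for WT31 against RET (73.2%) and 6 for B16F10 luc2 against RET (51.5%). D4M against HCmel12 called 8 (72.5%). The median absolute log2 fold change of the 8 members in that comparison was 2.04, beside 0.60 over all tested genes. It was 0.29 beside 0.59 for WT31 against RET and 0.69 beside 0.53 for B16F10 luc2 against HCmel12. These counts are a description, because Nt5e passed the filter through D4M alone. Of the 8 members, 5 were called higher in D4M than in each of the other 4 lines (20% of tested genes), 1 in HCmel12 (9.56%), 1 in B16F10 luc2 (8.81%) and 0 in WT31 (13.8%) or RET (7.07%).

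**Figure D2:**
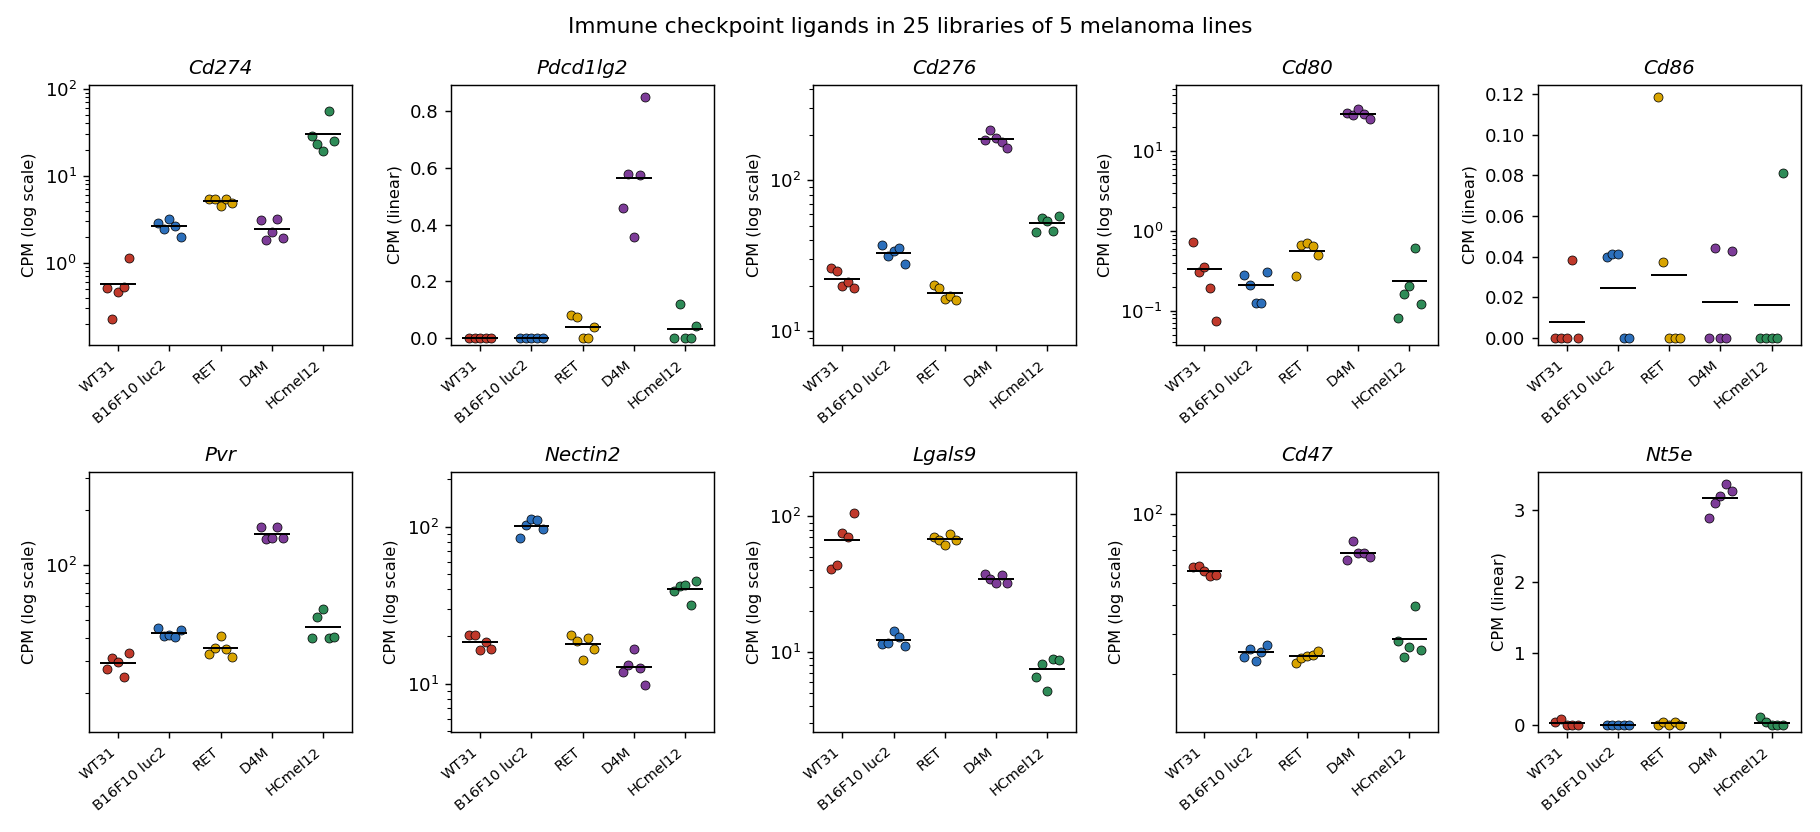
CPM of each of the 10 genes in all 25 libraries by line, with 1 point per library and a line at the mean (log axis, linear for Pdcd1lg2, Cd86 and Nt5e). Cd276, Cd80, Pvr and Nt5e are separated from the other lines in D4M, Cd274 in HCmel12 and Nectin2 in B16F10 luc2.

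Cd274, the ligand of PD-1, was highest in HCmel12 and lowest in WT31. HCmel12 libraries held 29.0, 23.4, 19.4, 55.4 and 25.4 CPM in the order of replicates. RET libraries held 5.45, 5.43, 4.54, 5.41 and 4.85 CPM. B16F10 luc2 (2.87, 2.45, 3.21, 2.65 and 2.01 CPM) and D4M (3.15, 1.83, 2.25, 3.16 and 1.93 CPM) overlapped. WT31 libraries held 0.517, 0.228, 0.464, 0.526 and 1.15 CPM, or 6 to 31.1 counts. No library of HCmel12 overlapped one of another line, and no library of WT31 did. HCmel12 exceeded RET by 2.47 (SE 0.25, adjusted p = 1.7e-09) on the log2 scale and WT31 by 5.75 (SE 0.48, adjusted p = 5e-11), that is 53.8-fold. RET exceeded B16F10 luc2 by 0.97 (SE 0.36, adjusted p = 0.024), a call lost without B16F10 luc2 replicate 5 (B16F10 luc2 minus RET -0.88, adjusted p = 0.061), whereas B16F10 luc2 and D4M were not separated (difference 0.12, 95% interval -0.73 to 0.97). Replicate 4 supplied the highest HCmel12 value. Without it the HCmel12 mean of Cd274 was 24.3 ± 3.98 CPM (n = 4) instead of 30.5 ± 14.4, and Cd274 exceeded that of RET by 2.23 (adjusted p = 9.8e-13 with limma).

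Pdcd1lg2, which encodes the other PD-1 ligand, was detected above 3 counts in D4M alone. D4M libraries held 10, 13, 8, 13 and 20 counts, a mean of 0.564 ± 0.185 CPM. WT31 and B16F10 luc2 libraries held 0 counts, which allows up to 0.124 CPM, RET libraries at most 2 and HCmel12 libraries at most 3. Against the 3-count floor D4M was at least 4.66-fold higher than every other line. These neighboring genes were thus highest in different lines.

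Cd276 (B7-H3), a B7 family member with an inhibitory role for T cells, was lower in every HIM-melanoma line than in either LM-melanoma line. D4M libraries held 185, 214, 189, 180 and 162 CPM. HCmel12 libraries held 45.4, 56.0, 54.2, 45.9 and 57.6 CPM. B16F10 luc2 libraries held 37.5, 31.4, 33.9, 35.6 and 27.9 CPM, all under HCmel12. WT31 libraries ranged from 19.3 to 26.2 CPM and RET libraries from 16.2 to 20.2 CPM. Cd276 was called in 10 of 10 comparisons, as were 7.19% of all tested genes, and its means fell in the order D4M, HCmel12, B16F10 luc2, WT31 and RET. The libraries of WT31 and RET overlapped, and their difference (0.31, adjusted p = 0.017 with limma) was not called without a filter on low counts (0.31, adjusted p = 0.079) or without WT31 replicate 1 (0.25, adjusted p = 0.059). The differences of HIM-melanoma to D4M were -3.07 (SE 0.10) for WT31, -2.49 (SE 0.09) for B16F10 luc2 and -3.38 (SE 0.10) for RET on the log2 scale. To HCmel12 they were -1.22 (SE 0.10), -0.64 (SE 0.10) and -1.53 (SE 0.11). Cd276 was the 1 member commonly regulated, that is significant with the same sign in all 6 comparisons of HIM-melanoma with LM-melanoma. It was lower in HIM-melanoma, which held for 6.4% of all tested genes, and 0 members were commonly higher (6.53%). The difference of B16F10 luc2 to HCmel12 was the smallest of the 6 and lay under 2-fold.

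Cd80, a ligand of CD28 and CTLA-4 that is usually studied on antigen presenting cells, was present in D4M at a level unlike that of any other line. D4M libraries held 29.9, 28.7, 33.9, 29.1 and 25.4 CPM. RET libraries held 0.272, 0.669, 0.709, 0.641 and 0.501 CPM. The highest value among WT31, B16F10 luc2 and HCmel12 libraries was 0.721 CPM, in WT31 replicate 1. D4M exceeded RET by 5.73 (SE 0.30, adjusted p = 1.7e-15) and HCmel12 by 7.16 (SE 0.38, adjusted p = 3.2e-15) on the log2 scale. RET had the next highest mean. It exceeded B16F10 luc2 by 1.35 (SE 0.47, adjusted p = 0.018), with overlapping libraries, while the difference of WT31 to RET missed the threshold (-0.98, adjusted p = 0.053 with limma). That difference was called with DESeq2 (-0.77, adjusted p = 0.03), with a replicate block (-0.95, adjusted p = 0.022) and without WT31 replicate 1 (-1.33, adjusted p = 0.012), RET replicate 1 (-1.21, adjusted p = 0.019), D4M replicate 3 or 5 or HCmel12 replicate 4 (-0.98 each, adjusted p from 0.036 to 0.049). WT31, B16F10 luc2 and HCmel12 were not separated, and some of their libraries held 3 counts or fewer. Of 20 immune cell markers, 13 stayed at or under 3 counts in all D4M libraries, among them Ptprc (at most 3 counts) and Tyrobp (0 counts), and the list summed to 79.2 to 116.3 CPM, most of it from Laptm5 (84.5 CPM). Other markers of the list were present in D4M, where Cd68 (8.01 ± 5.14 CPM), Cd14 (4.61 ± 0.857 CPM) and Laptm5 were called highest and Csf1r reached 16.1 counts. Flt3 (0.915 ± 0.302 CPM in D4M) held at most 6 counts in the libraries of the other lines and passed the filter through D4M alone. Their part in the Cd80 level was not tested.

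Cd86, the partner of Cd80 on antigen presenting cells, held at most 3 counts in each of the 25 libraries. At this depth it was not detectable in any line, and no fold is given.

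**Figure D3:**
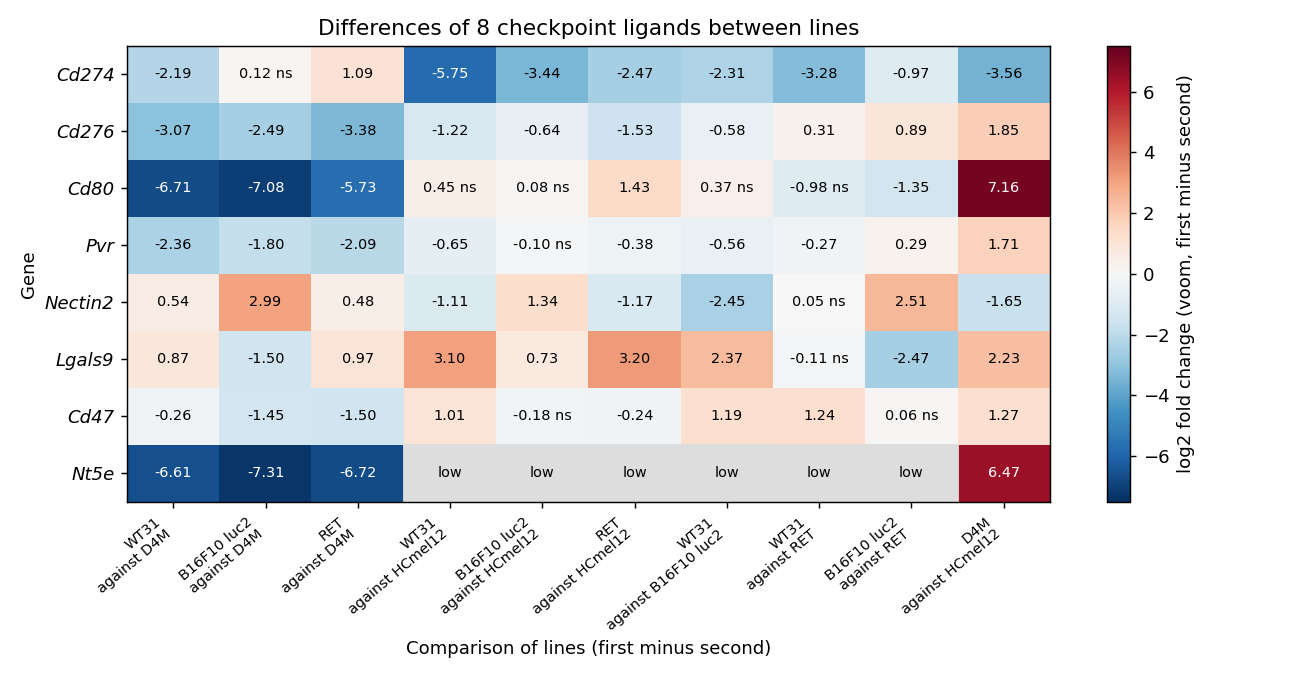
Log2 fold changes (first line minus second) of the 8 tested members in the 10 comparisons, colored from blue (lower in the first line) to red, with "ns" where the adjusted p was not under 0.05 and "low" where both lines held at most 3 counts. D4M against HCmel12 shows 8 called members, and Cd276 is called in every column.

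Pvr, the high-affinity ligand of TIGIT, was, like Cd276, highest in D4M and next in HCmel12. D4M libraries held 162, 139, 141, 162 and 140 CPM. HCmel12 libraries held 40.2, 52.2, 57.4, 39.8 and 40.4 CPM and overlapped those of B16F10 luc2 (40.3 to 45.6 CPM). RET libraries ranged from 31.4 to 41.0 CPM and WT31 libraries from 24.6 to 33.04 CPM. D4M stood apart from all other libraries. It exceeded HCmel12 by 1.71 (SE 0.09, adjusted p = 2.9e-15) and WT31 by 2.36 (SE 0.10, adjusted p = 1e-17) on the log2 scale. HCmel12 and B16F10 luc2 were not separated (difference of B16F10 luc2 to HCmel12 -0.10, 95% interval -0.29 to 0.10), so Pvr was not commonly regulated. WT31 was lower than RET by 0.27 (SE 0.10, adjusted p = 0.02), a call lost without a filter (-0.28, adjusted p = 0.061), on the TPM scale (-0.17, adjusted p = 0.15) and without WT31 replicate 4 (-0.21, adjusted p = 0.074) or RET replicate 3 (-0.22, adjusted p = 0.069).

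Nectin2, a weaker ligand of the same receptor family, showed another order. B16F10 luc2 libraries held 84.9, 103, 112, 110 and 96.2 CPM. HCmel12 libraries held 39.1, 41.6, 42.5, 31.7 and 45.1 CPM. WT31 (16.5 to 20.4 CPM) and RET (14.1 to 20.5 CPM) overlapped, and D4M was lowest (9.88 to 16.7 CPM). B16F10 luc2 exceeded HCmel12 by 1.34 (SE 0.10, adjusted p = 3.4e-12) and D4M by 2.99 (SE 0.13, adjusted p = 2.1e-17) on the log2 scale. D4M was lower than RET by 0.48 (SE 0.14, adjusted p = 0.0033), although their libraries overlapped. D4M was thus called lowest for Nectin2 and highest for Pvr. On the TPM scale, Pvr stood at 74.3 and Nectin2 at 8.05 in D4M, while they stood at 23.5 and 64.5 in B16F10 luc2.

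Lgals9, which encodes the secreted galectin-9, was highest in RET and WT31. RET libraries held 71.2, 67.1, 61.6, 74.7 and 67.0 CPM. WT31 libraries spread more widely and held 41.2, 43.6, 75.2, 70.2 and 107 CPM. D4M libraries ranged from 32.1 to 38.0 CPM, B16F10 luc2 libraries from 11.2 to 14.2 CPM and HCmel12 libraries from 5.19 to 8.88 CPM, with no overlap between these 3 lines. WT31 replicates 1 and 2 lay below all RET libraries and replicates 3 and 5 above them. The difference of WT31 to RET was -0.11 (SE 0.16, adjusted p = 0.56), and it was called at -0.30 (adjusted p = 0.04 with limma) without WT31 replicate 5. RET exceeded HCmel12 by 3.20 (SE 0.25, adjusted p = 1.1e-11) and D4M by 0.97 (SE 0.17, adjusted p = 1.4e-05) on the log2 scale. WT31 exceeded B16F10 luc2 by 2.37 (SE 0.21, adjusted p = 1.6e-10), so that the gene differed within HIM-melanoma as well. Cd274 and Lgals9 were highest in different lines, and their log2 CPM correlated at r = -0.60 over 25 libraries, which share 5 lines. This is a description without a test.

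Cd47, the signal that protects a cell from phagocytosis, varied least in fold among the tested members. D4M libraries held 63.1, 76.7, 67.6, 67.6 and 64.8 CPM. WT31 libraries held 59.0, 59.2, 56.7, 54.0 and 54.4 CPM. B16F10 luc2 (22.8 to 27.0 CPM) and RET (22.4 to 25.4 CPM) overlapped, and HCmel12 held 27.8, 23.9, 26.3, 39.7 and 25.5 CPM. D4M and WT31 therefore formed an upper level and the other lines a lower one. WT31 exceeded HCmel12 by 1.01 (SE 0.09, adjusted p = 9.1e-11) and RET by 1.24 (SE 0.09, adjusted p = 1.9e-12) on the log2 scale. D4M exceeded WT31 by 0.26 (SE 0.08, adjusted p = 0.0045), but scaling by library size alone, which shifts D4M by -0.15 and WT31 by 0.07 for all genes, left a difference of -0.04 (WT31 minus D4M, adjusted p = 0.7). The call was also lost on the TPM scale with 0.1 added (-0.20, adjusted p = 0.053). The place of Cd47 among the members called highest in D4M rests on this call. RET was lower than HCmel12 by 0.24 (SE 0.10, adjusted p = 0.032), but the direction turned on the TPM scale (0.10), and without HCmel12 replicate 4 the difference was -0.11 (adjusted p = 0.15 with limma). It was also not called without RET replicate 1 (-0.21, adjusted p = 0.074) or 2 (-0.23, adjusted p = 0.057). The call was lost as well with scaling by library size alone (-0.21, adjusted p = 0.057) and with only these 2 lines in the fit (-0.24, adjusted p = 0.082).

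Nt5e, which encodes CD73, was again detected in D4M alone. D4M libraries held 63, 70, 72.1, 76 and 77 counts, or 2.89 to 3.37 CPM. The libraries of the other lines held at most 2.5 counts, and those of B16F10 luc2 held 0. D4M was at least 26.2-fold higher than each other line, computed against 3 counts per library. The level in D4M was low in absolute terms, 1.09 ± 0.052 TPM (n = 4), more than 23.6% of the tested genes.

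Over line means, HIM-melanoma and LM-melanoma were also compared with the line as the unit. Cd276 was lower in HIM-melanoma by 2.05 on the log2 scale and Pvr by 1.23, and for both every HIM-melanoma mean lay under every LM-melanoma mean (exact two-sided permutation of 5 lines, p = 0.1, the smallest p that 10 arrangements allow). For Cd274 (-2.11, exact p = 0.5), Cd80 (-2.93, exact p = 0.5), Cd47 (-0.44, exact p = 0.5), Lgals9 (1.23, exact p = 0.5) and Nectin2 (0.51, exact p = 0.8) the line means of both groups overlapped. The differences of Cd274 and Cd80 each came from 1 LM-melanoma line, HCmel12 and D4M, respectively. For Pvr, D4M stood at 149 CPM, while HCmel12 (46.0 CPM) and B16F10 luc2 (42.6 CPM) were not separated. Nt5e and Pdcd1lg2 are left out of this comparison, since 4 of the 5 lines lay at or under the 3-count floor.

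The 8 tested members followed different lines, and the genes most like each of them are named by the highest Pearson r of log2 CPM over 25 libraries, as a description. Cd274 was followed most closely by B3gnt9 (r = 0.962), Erfe (0.959) and the interleukin-3 receptor subunit Il3ra (0.957). Cd276 was followed by Clic1 (0.984), Rab5c (0.982) and Capn5 (0.978), and Pvr by Fzd5 (0.974), S100a6 (0.974) and Dmtn (0.973). Cd80 was followed by Prcp (0.972), St18 (0.969) and Slc14a1 (0.967), and Nt5e by Slc8a1 (0.973), the collagen gene Col6a2 (0.970) and D16Ertd472e (0.968). Nectin2 was followed by Gon4l (0.962), Erlin2 (0.958) and Cuedc2 (0.944), and Lgals9 by Cbr1 (0.968), Sec16b (0.951) and Vps4a (0.945). Cd47 was followed by Dkk2 (0.977), Cnrip1 (0.976) and Ddx3y (0.974). Ddx3y stood at 67.8 CPM in WT31 and 58.9 in D4M, the upper lines for Cd47, and at most 0.0404 elsewhere. Its relation to the Cd47 levels was not tested. Among the members, the closest pairs were Cd276 and Pvr (r = 0.94), Cd80 and Nt5e (0.92) and Pvr and Nt5e (0.90). The points share 5 lines, so that each r mostly reflects 5 levels.

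Interferon signaling genes regulate the transcription of Cd274, and some of the other genes of the list act on the PD-L1 protein. All 18 listed genes passed the filter. In D4M, 8 of them were called highest (20% of tested genes), and in HCmel12 4 were (9.56%). Irf1, a transcription factor for Cd274, was commonly lower in HIM-melanoma. It reached 22.4 ± 2.39 CPM in HCmel12, 16.6 ± 3.04 in D4M and between 5.88 and 8.77 in the 3 HIM-melanoma lines. Stat2 was the other commonly lower gene of the 18, beside 6.4% of all tested genes. Socs1, a feedback inhibitor of cytokine receptors, stood at 15.8 ± 3.1 CPM in D4M and at 0.474 to 1.34 CPM elsewhere. Irf9 was at 39.7 CPM in D4M and 12.1 CPM in HCmel12, and the PD-L1 stabilizing gene Cmtm6 was highest in HCmel12 (32.0 ± 3.22 CPM). Stat3 (178 ± 19.4 CPM, 40.3 to 143 elsewhere) and Myc (259 ± 74.1 CPM, 95.1 to 124.5 elsewhere) were also called highest there. Other genes of the list went the other way. Jak1 (71.0 CPM, 137 to 196 elsewhere) and Nfkb1 (43.6 CPM, 58.9 to 89.6 elsewhere) had their lowest mean in HCmel12. The part of these genes in the Cd274 levels was not tested. The median absolute log2 fold change of the list over all comparisons was 0.51, beside 0.56 over all tested genes.

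The 5 HCmel12 libraries were then compared for these genes, chosen after their values were seen. In replicate 4, Irf9 stood at 22.1 CPM against 8.67 to 10.7 in the others and Stat2 at 23.4 against 14.5 to 18.7. Irf1 was lowest there (20.4 CPM against 20.7 to 25.1). Of the 18 list genes, 5 were highest and 8 lowest in that library, where 30.7% and 30.1% of all tested genes had their highest and lowest value. The count of highest genes lay near the share over all genes and is no result about the list. The part of Irf9 and Stat2 in the Cd274 and Cd47 values was not tested.

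**Figure D4:**
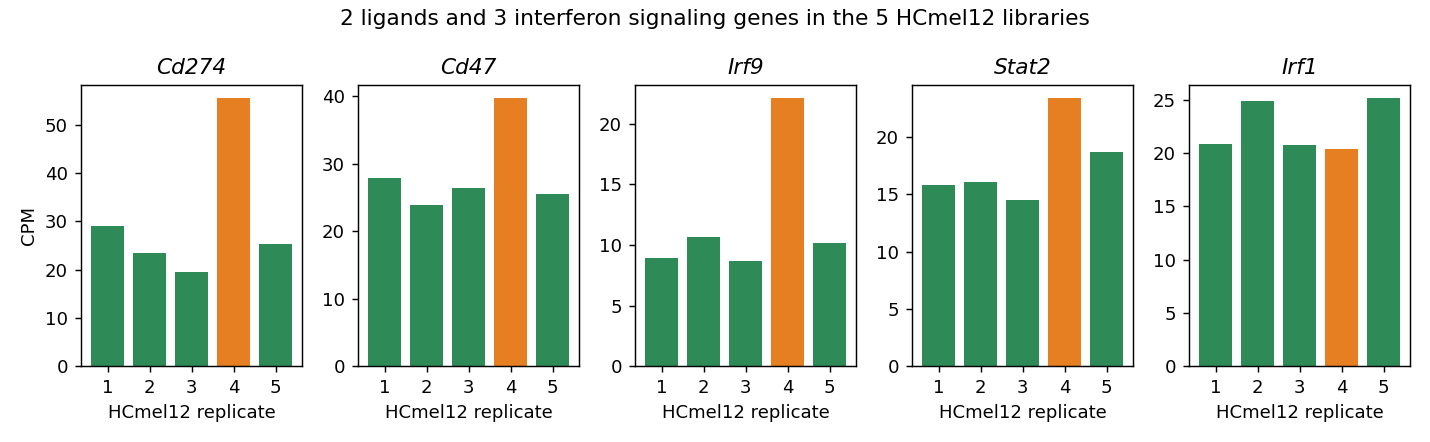
CPM of Cd274, Cd47, Irf9, Stat2 and Irf1 in the 5 HCmel12 libraries, with replicate 4 in orange. Replicate 4 is highest for 4 of these genes and lowest for Irf1.

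Genes of the adenosine axis act before and after CD73. Of 18 listed genes, 12 passed the filter and 3 were commonly lower in HIM-melanoma (6.4% of all tested genes), namely Enpp1, which produces AMP, and the adenosine transporters Slc29a1 and Slc29a2. Entpd1 (CD39), which supplies CD73 with AMP, held at most 5 counts in every library. Other phosphatases that can release adenosine were found in lines without Nt5e. Alpl reached 29.9 ± 4.0 CPM in HCmel12 and at most 0.274 elsewhere, and Acpp reached 55.2 CPM in B16F10 luc2 and 24.3 in RET against 0.244 in WT31. Entpd2 was at 19.7 CPM in B16F10 luc2 and 12.3 in RET. The adenosine receptor Adora2a was highest in HCmel12 (7.62 ± 1.23 CPM). The list's median absolute log2 fold change was 1.38, beside 0.56 over all tested genes. It includes Alpl, which exceeded 10 counts in HCmel12 libraries alone.

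Nectins bind each other and compete for the same partners as Pvr and Nectin2. Of 8 listed genes, 6 were tested and 0 were commonly regulated, beside 6.4% of all tested genes that were lower and 6.53% that were higher in HIM-melanoma. In D4M, 4 were highest, beside 20% of all tested genes. The count is a description, because 2 of these 4, Cadm2 and Cadm3, exceeded 10 counts in D4M libraries alone. Nectin3, a binding partner of both, stood at 173 ± 22.02 CPM in D4M and at 24.4 to 42.0 CPM in the other lines. Nectin1 stood at 21.9 CPM in D4M and at 0 in B16F10 luc2. Of the other B7 and butyrophilin family genes, 5 of 10 were tested. Igsf11, a ligand of VISTA, was at 123 ± 12.4 CPM in WT31 and 112 ± 14.9 in HCmel12 but at 1.1 ± 0.329 in D4M. Vsir, which encodes VISTA, was at 1.17 CPM in D4M and at most 0.0247 elsewhere. Icosl did not exceed 4.24 CPM in any library.

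Of 20 other inhibitory ligands and enzymes of tumor cells, 15 were tested, 8 were highest in D4M (20% of all tested genes) and 4 in WT31 (13.8%). Tgfb1, an immunosuppressive cytokine, was the 1 commonly lower gene of the 15, a share near the 6.4% of all tested genes, with 98.02 ± 21.04 CPM in D4M, 53.1 ± 13.4 in HCmel12 and 39.5, 18.2 and 2.10 in WT31, B16F10 luc2 and RET. Ptgs2, which produces prostaglandins, stood at 193 CPM in D4M and at most 0.226 elsewhere (at most 9 counts per library), and passed the filter through D4M alone. Cd200, whose receptor restrains myeloid cells, stood at 167 ± 33.6 CPM in WT31 and 28.9 in HCmel12. Lgals3 was at 673 CPM in B16F10 luc2 and 0.171 in RET, an order unlike that of Lgals9. Ido1 held at most 3 counts in every library. Of 9 listed TNF family genes, 3 were tested, and Tnfsf9 (4-1BB ligand) ranged from 3.11 CPM in WT31 to 10.3 in D4M.

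**Figure D5:**
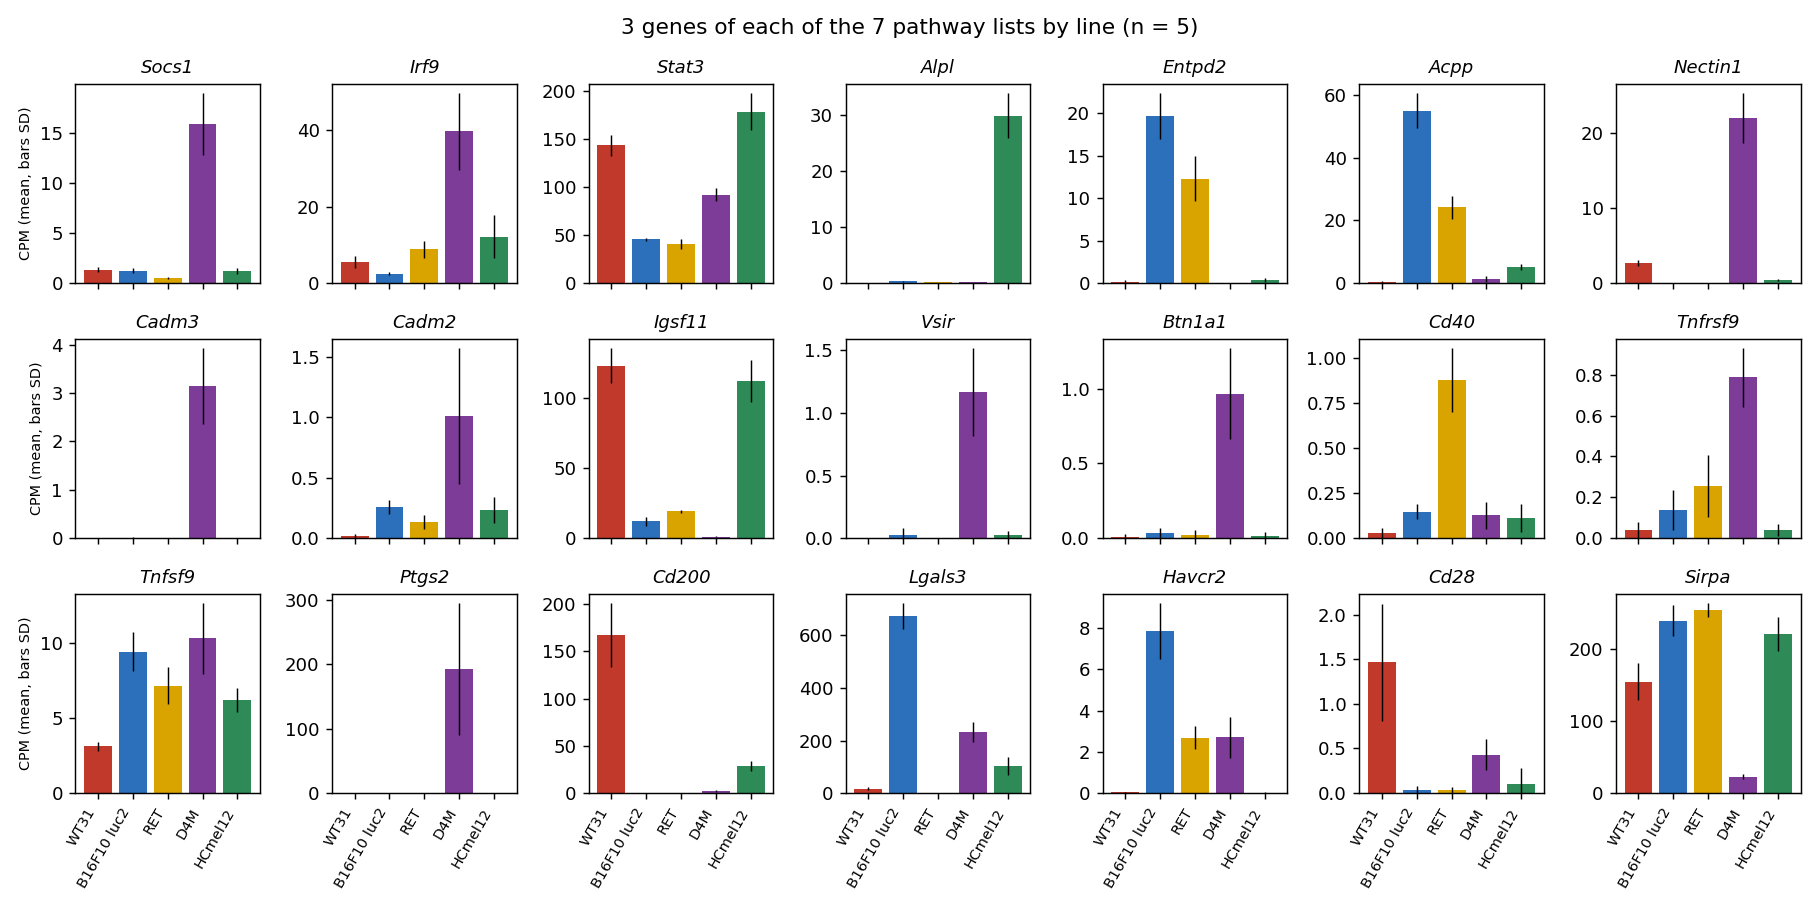
Mean CPM with bars of 1 SD (n = 5) by line for the 3 genes of each of 7 lists with the widest range of line means. Ptgs2, Nectin1 and Socs1 are tall in D4M, Alpl in HCmel12, Cd200 in WT31 and Lgals3 in B16F10 luc2, while Sirpa is low in D4M.

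Receptors of the ligands were measured as a check for immune cells in the cultures. Of 13 receptors, 3 passed the filter. Pdcd1 held 0 counts in all libraries, which allows up to 0.111 to 0.138 CPM, and Tigit, Cd226 and Cd96 held at most 3. Cd28, the activating receptor of CD80 on T cells, was called highest in WT31, with 26 to 71 counts per library (1.47 ± 0.658 CPM), and reached 14 counts in D4M. Sirpa, the receptor of CD47, was itself transcribed in the tumor lines. It was lowest in D4M (22.8 ± 3.42 CPM) and WT31 (154 ± 25.2 CPM), and reached 221 ± 23.4 CPM in HCmel12, 239 ± 21.4 in B16F10 luc2 and 253 ± 9.56 in RET. Havcr2 (TIM-3), a receptor of galectin-9, was at 7.86 CPM in B16F10 luc2, 2.70 in D4M and 2.69 in RET but at 0.046 in WT31.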

How the data were processed

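RNA-seq was performed by the authors on 25 cultures. According to the submitters' processing notes, reads were trimmed with Trim Galore (0.6.4) and assigned to GRCm38.p6 with kallisto (0.4.6). The authors deposited estimated counts per gene, without normalization, and TPM, scaled by transcript length to 1000000 per library. TPM of D4M replicate 1 were not used here. Counts were filtered with filterByExpr and scaled by TMM (edgeR 4.0.16) and fitted with voom (limma 3.58.1, R 4.3.3), with 1 mean per line. P-values of limma were adjusted by Benjamini-Hochberg over 15247 genes per comparison, at 0.05. CPM are counts over TMM-scaled totals. Symbols were matched for 55144 genes by identifier without its version. Line means were compared by exact permutation. Alternatives were edgeR's quasi-likelihood test, DESeq2 (1.42.0), other scalings, filters and thresholds, TPM, a replicate block and leaving out libraries. The fits were tested on simulated data. The members, the lists and the rule for named genes (all members, the 3 tested genes per list with the widest range of line means and the 3 genes most correlated with each tested member) were chosen with earlier results of these data known. Further list genes, including Irf1, Stat2, Cmtm6, Enpp1, Adora2a, Entpd1, Nectin3, Tgfb1, Icosl, Ido1, Pdcd1, Tigit, Cd226 and Cd96, and single marker genes were named after their values were seen. Some results are not reported here. Floors cover counting error only.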

Additional observations from a re-analysis of the deposited data

Results flagged for a closer look

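In 37 groups of 5 libraries, a member's highest or lowest library was set against its line, and 3 stood apart by Dixon's critical value (0.71), where chance gives about 1 in 20 groups. All 3 were the highest value of HCmel12 replicate 4. Cd274 was at 55.4 CPM there and at most 29.0 in the other HCmel12 libraries. Cd47 was at 39.7 CPM, where the others reached 27.8. Cd80 was at 0.606 CPM (15 counts), where the others held 5 counts or fewer. Without this library Cd47 was at 25.9 ± 1.66 CPM in HCmel12 and Cd80 at 0.141 ± 0.0522 (n = 4).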

How the results depend on the processing

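Under 36 other settings that give fold changes, 2581 of 2636 log2 fold changes of the members kept their direction and their side of the threshold. Of the 2636, 1850 came from leaving out 1 library, often of a line outside the comparison, and 1825 of these were kept. On the TPM scale 67 (1 added) and 66 (0.1 added) of 74 were kept, and without a filter 69 of 74. Requiring at least 10 counts in every library removed Cd274, Cd80 and Nt5e. Cd274 thus dropped out of the members called highest in HCmel12, and Cd80 and Nt5e out of those in D4M. All 50 log2 fold changes of the remaining members kept their direction and their side of the threshold. With a limit of 2-fold, 5 of 8 were called for WT31 against D4M (36.7% of all tested genes), 2 for B16F10 luc2 against HCmel12 (28.1%), 2 for WT31 against RET (31.2%) and 3 for B16F10 luc2 against RET (14.3%). Cd276 was then not commonly regulated, because its difference of B16F10 luc2 to HCmel12 (-0.64) lay under 2-fold. Reversals concerned differences of at most 0.24 in size, of which that of Cd47 in RET against HCmel12 was called. Cd80 in B16F10 luc2 against HCmel12 turned to -0.15 with edgeR's quasi-likelihood test and -0.19 with DESeq2, and ranged from -0.18 to 0.48 when 1 library was left out, below 0 without B16F10 luc2 replicate 1 or 5 or HCmel12 replicate 1 or 5. On the TPM scale, with 1 or 0.1 added, Cd47 turned to 0.09 and 0.10 in B16F10 luc2 against HCmel12, to 0.10 and 0.11 in RET against HCmel12 and to -0.01 in B16F10 luc2 against RET, and Lgals9 to 0.03 in WT31 against RET. On TPM the median of all genes in WT31 against D4M was 0.16, and -0.01 in the fit of counts. Without 1 library, the Lgals9 difference ranged from -0.30 to 0.05, above 0 without WT31 replicate 1 or 2, and that of Nectin2 in WT31 against RET from -0.03 (without RET replicate 3) to 0.10. The Nectin2 difference was called on the TPM scale (0.27 and 0.28, adjusted p = 0.039 and 0.037), and that of Cd47 in B16F10 luc2 against HCmel12 with DESeq2 (-0.24, adjusted p = 0.027) and without HCmel12 replicate 2 (-0.24, adjusted p = 0.031). The cause was not tested. Same-numbered replicates did not deviate together (r from -0.09 to 0.10 over 50 pairs), and with a replicate block Cd80 became called in WT31 against RET (-0.95, adjusted p = 0.022). Without a filter, calls were lost at nearly the same size for Cd276 (0.31, adjusted p = 0.079) and Pvr (-0.28, 0.061) in WT31 against RET, Pvr in B16F10 luc2 against RET (0.28, 0.066), Cd47 in RET against HCmel12 (-0.23, 0.064) and Lgals9 in B16F10 luc2 against HCmel12 (0.72, 0.089). The Lgals9 call was also lost without B16F10 luc2 replicate 3 (0.67, adjusted p = 0.054) or HCmel12 replicate 1 (0.69, 0.051) or 3 (0.60, 0.074), and that of Pvr in B16F10 luc2 against RET without RET replicate 5 (0.24, 0.058) and on the TPM scale (0.21 and 0.22, both 0.11). Without HCmel12 replicate 4 and D4M replicate 1, a setting chosen after seeing the data, Cd47 was no longer called in RET against HCmel12 (-0.11, adjusted p = 0.14), and Cd80 was called in WT31 against RET (-0.98, adjusted p = 0.039). Depth limits Cd86, Pdcd1lg2 and, outside D4M, Nt5e.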
